A study of Mus musculus with 3 samples.

Results

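The 10 genes described here are the 5 casein genes Csn2, Csn1s2a, Csn1s1, Csn1s2b and Csn3 and 5 genes of the STAT5 pathway, Stat5a, Stat5b, Cish, Socs2 and Pim1, out of 17742 genes with a named probe. All 10 were found by gene symbol, and each was measured by 1 probe, so no second probe checked a reading. The set was chosen by the large difference in intensity of Csn2 and Csn1s2a between the resistant array and the sensitive arrays of this same table. The difference between resistant and sensitive cells is therefore given for these genes as a description, without a test. The resistant group was 1 array of B117HS, a mouse myeloid leukaemia line derived from B117P by exposure to rising concentrations of cytarabine (Ara-C) over about 10 weeks, with an IC50 about 10 times that of B117P per the labels. The sensitive group was 2 arrays, replicates 1 and 2, of the parental line B117P, with no cytarabine selection in its labels. Both lines come from bone marrow of the BXH-2 strain, in which leukaemia is caused by an endogenous murine leukaemia virus, and both were grown in serum-containing medium with added insulin. B117HS is a single selected line, the labels do not say whether the drug was present at harvest, and they do not state whether the pair of sensitive arrays was made from separate cultures. The comparison asks which transcripts of these genes separate B117HS from B117P.

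STAT5a and STAT5b are closely related transcription factors that wait in the cytoplasm until a cytokine or hormone receptor binds its ligand. The receptor's JAK kinase then phosphorylates them, and the paired factors enter the nucleus and bind a short palindromic DNA element. In the lactating mammary gland prolactin acts through this route on the casein genes, which encode the main milk proteins. In blood cells interleukin-3, GM-CSF, erythropoietin and thrombopoietin use the same factors, and Cish, Socs2 and Pim1 are among the target genes. Phosphorylation of STAT5 is not measured by an RNA array.

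The palindrome was looked for in promoter sequence, which does not depend on the arrays. The genes were listed as casein and STAT5 pathway genes, so matches among them are a description and not a test. The motif searched was TTCNNNGAA, which reads the same on both strands, in windows of 300 bases from 250 before to 50 after each annotated start (RefSeq, GRCm38.p6). Windows were given for 7 of the 10 genes. The windows of 4 of them, Csn2, Csn1s1, Csn1s2a and Cish, held a match, and those of Stat5a, Stat5b and Pim1 held none. Of all 27025 genes with a window 9.55% held a match. Over all 32851 windows 8.30% held at least 1 match and 0.457% held 2 or more. The sequences below show where the motif, in capitals, lies in the casein and Cish promoters. They are printed 5′ to 3′ on the strand of the gene, in full up to the start for Csn2 and Csn1s1 and as 30 bases around the match for Csn1s2a and Cish. They lie at chr5:87699426-87699675 (minus strand, Csn2), chr5:87665958-87666207 (plus strand, Csn1s1), chr5:87774460-87774489 (plus strand, Csn1s2a) and chr9:107296654-107296683 (plus strand, Cish).
Csn2: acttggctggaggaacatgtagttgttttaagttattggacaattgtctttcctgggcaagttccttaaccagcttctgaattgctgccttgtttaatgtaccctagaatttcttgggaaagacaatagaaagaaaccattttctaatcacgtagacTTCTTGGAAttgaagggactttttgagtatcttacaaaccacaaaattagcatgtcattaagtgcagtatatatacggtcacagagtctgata
Csn1s1: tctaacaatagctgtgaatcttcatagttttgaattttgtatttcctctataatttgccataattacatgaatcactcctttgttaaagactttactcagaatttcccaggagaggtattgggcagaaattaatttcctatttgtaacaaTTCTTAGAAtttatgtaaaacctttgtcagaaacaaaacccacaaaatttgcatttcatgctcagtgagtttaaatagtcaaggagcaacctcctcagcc
Csn1s2a: ttatagtgctTTCTTAGAAttacaatgact
Cish: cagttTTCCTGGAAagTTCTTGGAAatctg

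The match in Csn2 ran from base -93 to -85 and that in Csn1s1 from -100 to -92, counted from the annotated start. In Csn1s2a it lay downstream of the start, at bases 21 to 29. Cish held 2 matches, at bases 1 to 9 and 12 to 20. The central bases differed: Csn2 and the second Cish match read TTCTTGGAA, both Csn1s1 and Csn1s2a read TTCTTAGAA, and the first Cish match read TTCCTGGAA. A match is a description of the sequence and does not show that STAT5 bound there in these cells. Among the further STAT5 targets described below, 2 of 15 genes with a window held a match (Bcl6 and Socs3), and among the receptors and kinases 3 of 19 did (Csf2rb2, Il7r and Prlr), beside 9.55% of all genes with a window.

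**Figure D1:**
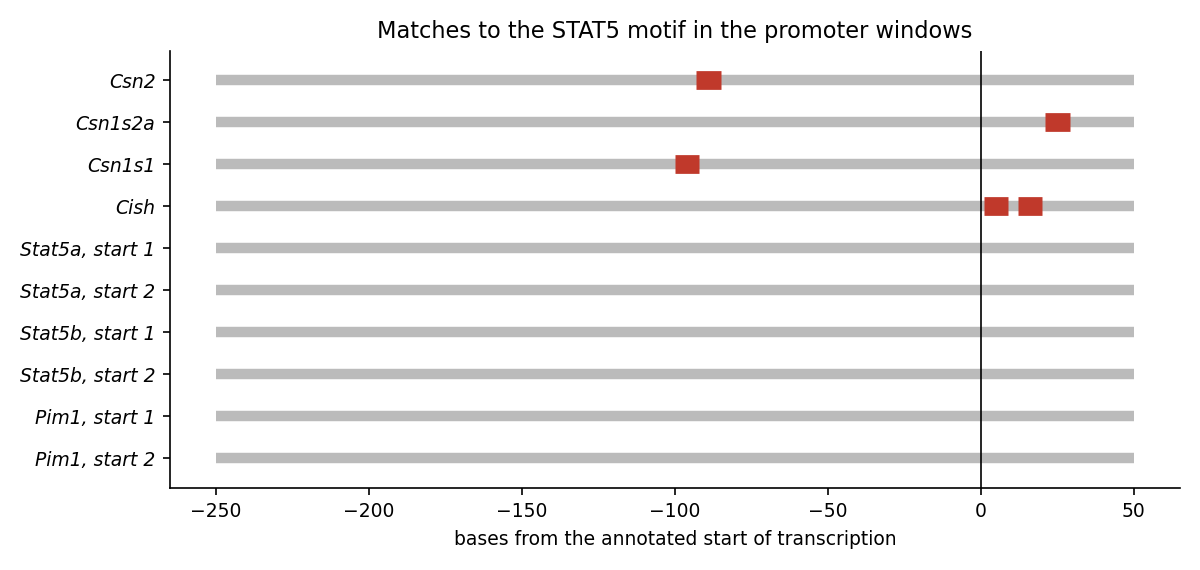
Position of TTCNNNGAA matches (red) in the promoter windows (grey) of the 7 genes with a window, in bases from the annotated start of transcription (vertical line); genes with more than 1 annotated start have a row for each. Csn2 and Csn1s1 hold a match upstream of the start, Csn1s2a and Cish hold matches within 50 bases after it, and the rows of Stat5a, Stat5b and Pim1 are empty.

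The arrays gave linear intensities with the background already subtracted. The resistant array was dimmer: its median over 26423 probes was 24.9 units, against 58.4 and 72.5 units on the sensitive arrays, and over 6167 bright probes (mean of at least 500 units) it lay 0.76 log2 units below the sensitive mean. Differences are given on the log2(intensity + 50) scale, as deposited and after each array was scaled to remove the shift of the bright probes. A difference on this scale understates the change of a dim gene. The median difference of all 17742 genes was -0.33 as deposited and -0.06 after scaling. A gene tested below was called, and is said to have risen or fallen, when limma's Benjamini-Hochberg adjusted p was under 0.05 and the log2 difference was at least 1 from each sensitive array, on both scales. By this rule 5.21% of all genes were called higher and 8.44% lower in the resistant cells, so 38.2% of the calls were higher. The split depended on the scale: higher calls made up 22.0% as deposited alone, 53.4% with scaling alone, 52.6% with quantile normalization, 57.1% with median centring and 84.6% with a floor of 50 units in place of the offset. The p-values rest on the spread between the 2 sensitive arrays, which may be technical, and take the lone resistant array to vary like them. With 3 arrays in all, precision is limited by their number.

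Csn2, which encodes beta-casein, had the widest separation of the 10 genes. Its probe read 93214 units on the resistant array, against 262 and 331 units on the sensitive arrays. The resistant reading was 314 times the sensitive mean of 297 ± 48.7 units (SD, n = 2), a log2 difference of 8.08 as deposited and 8.84 after scaling. Only 3 of the 17742 genes had a larger positive difference, Csn2 standing at rank 4. The reading was below the ceiling of the array, whose brightest probe read 101825 units. Both sensitive readings lay above the medians of their arrays.

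Csn1s2a, which encodes an alpha-S2-like casein, was close to 0 in the parental cells and well above it in the resistant cells. It read 1005 units on the resistant array, against 0 and -2.64 units on the sensitive arrays. Because the sensitive readings were at or below 0, no ratio is given. The log2 difference was 4.44 as deposited and 5.17 after scaling, but its size is set by the offset: it was 6.13 with an offset of 16 and 3.49 with an offset of 100. No flag for a failed spot was used here, so for this and every other gene a reading near 0 cannot be told apart from a failed spot by these values.

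The other 3 casein genes did not share this pattern. Csn1s1, which encodes alpha-S1-casein, read 18.7 units on the resistant array, against 1.24 and 10.6 units on the sensitive arrays. All 3 readings lay below the median of their own array, so the log2 difference of 0.30 (0.55 after scaling) is between readings near the background. Csn3, which encodes the micelle-stabilising kappa-casein, read -6.22 units in resistant cells, against 0 and 3.96 units in sensitive cells, and was near 0 throughout. Csn1s2b, the neighbour and relative of Csn1s2a, was lower in the resistant cells, with 18.7 units against 69.6 and 117.4 units. Its log2 differences were -0.80 from sensitive replicate 1 and -1.29 from sensitive replicate 2, and -0.57 and -1.01 after scaling, so it passed a difference of 1 only against replicate 2.

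**Figure D2:**
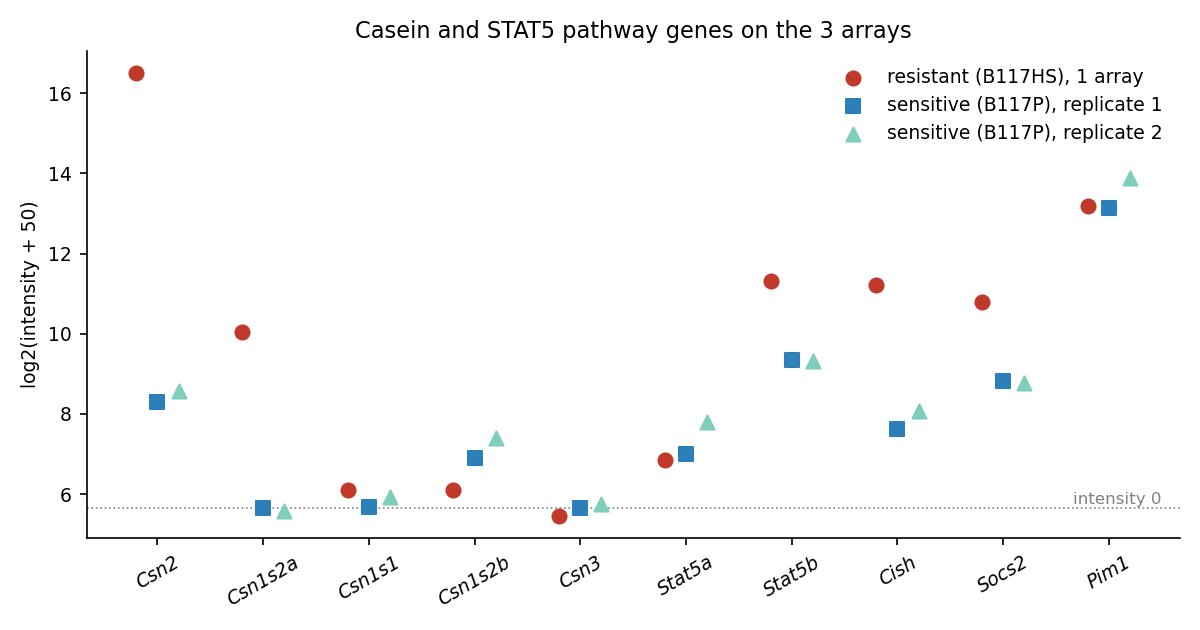
Level of the 10 genes on each array, as log2(intensity + 50); the red circle is the resistant array, the blue square and green triangle are sensitive replicates 1 and 2, and the dotted line marks an intensity of 0. The resistant array lies far above both sensitive arrays for Csn2, Csn1s2a and Cish and above both for Stat5b and Socs2, while Csn1s1 and Csn3 sit near 0 on all 3 arrays.

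The STAT5 factor genes differed from each other. Stat5b read 2481 units on the resistant array, against 603 and 590 units on the sensitive arrays. The sensitive readings were nearly equal, and the resistant reading was 4.16 times their mean of 596 ± 9.17 units (SD, n = 2), a log2 difference of 1.97 (2.72 after scaling). Stat5a, its neighbour on chromosome 11 with 0 annotated genes between them, read 65.3 units on the resistant array, against 78.3 and 171 units on the sensitive arrays. The resistant reading was the lowest of the 3 as deposited and lay between the sensitive readings after scaling (111 units, against 80.2 and 167 units), with log2 differences of -0.55 and -0.07. The proteins are highly similar, and whether either probe also bound the other transcript was not tested.

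Cish encodes an SH2 protein that STAT5 induces and that binds activated cytokine receptors to limit further STAT5 signalling. Its probe read 2332 units on the resistant array, against 147 and 219 units on the sensitive arrays. The resistant reading was 12.8 times the sensitive mean of 183 ± 51.2 units (SD, n = 2), and the log2 difference was 3.37, or 4.12 after scaling. Socs2, a related feedback inhibitor best known for restraining growth hormone signalling, read 1734 units in resistant cells, against 403 and 384 units in sensitive cells. This was 4.41 times the sensitive mean, a log2 difference of 2.01 (2.75 after scaling), close to that of Stat5b. Both feedback inhibitors thus lay above both sensitive arrays on either scale.

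Pim1, a serine/threonine kinase gene that cytokines induce through STAT5 and a common site of retroviral insertion in mouse lymphomas, did not separate the groups. It read 9240 units on the resistant array, against 9024 and 15166 units on the sensitive arrays. The resistant reading lay between the sensitive ones, with a log2 difference of -0.34. After scaling it was the highest of the 3 by a small margin, with 15669 units against 9249 and 14797 units and a log2 difference of 0.42.

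Of the 10 genes, 5 differed by at least 1 log2 unit from each sensitive array on both scales, all of them higher, against 5.23% of all genes higher and 8.66% lower by the same size. The shares of all genes called by limma were 5.23% higher and 18.5% lower as deposited alone, and 9.81% higher and 8.54% lower with scaling alone. The 5 genes were 2 of the 5 casein genes (Csn2 and Csn1s2a) and 3 of the 5 pathway genes (Stat5b, Cish and Socs2). Since this contrast chose the genes, nothing is read from that count. The median log2 difference of the 10 was 1.14 as deposited and 1.64 after scaling. Between the sensitive arrays themselves none of the 10 differed by more than 0.79 log2 units, the value of Stat5a.

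**Figure D3:**
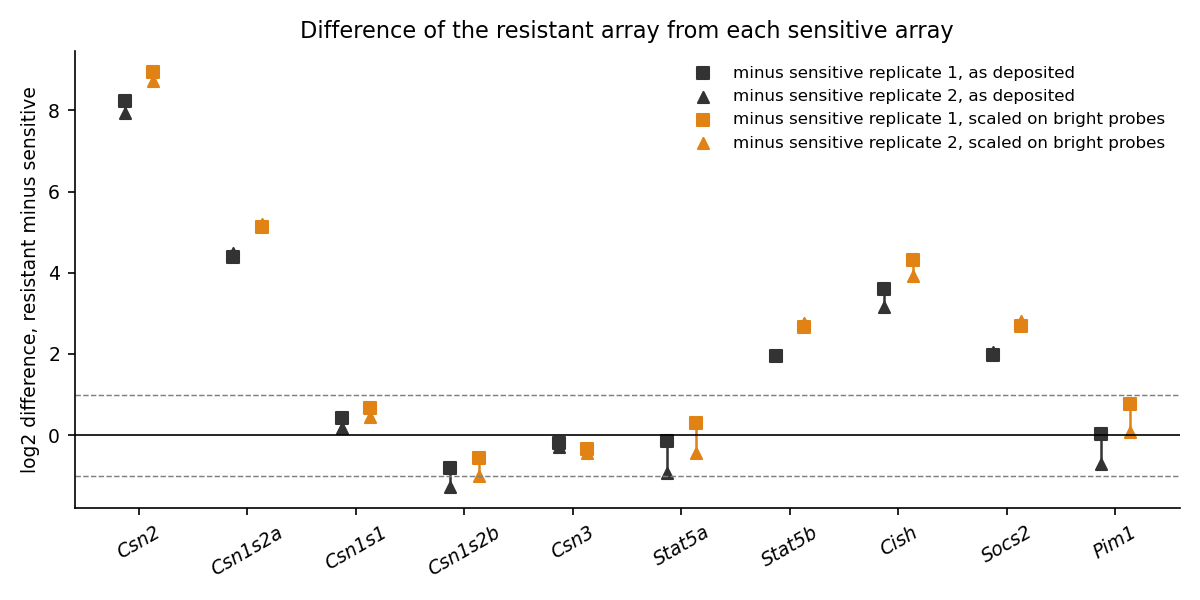
Log2 difference of the resistant array from sensitive replicate 1 (squares) and replicate 2 (triangles), as deposited (black) and after scaling on bright probes (orange), on the log2(intensity + 50) scale; dashed lines mark differences of 1. Scaling raises bright genes by about the same amount, and it moves Pim1 above 0 against both sensitive arrays, while 5 genes stay above 1 on either scale.

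The genes around the casein cluster on chromosome 5 were examined in the annotated order. Among the 15 nearest measured genes on each side, 30 in all, 0 rose and 0 fell, against 5.21% of all genes called higher and 8.44% called lower. At an unadjusted limma p under 0.05 as deposited, 0 were higher and 13 lower. The share of all genes at this unadjusted threshold is not given, here or for the lists below, so nothing is read from such counts. As deposited alone limma called 5.23% of all genes higher and 18.5% lower. Of the 30 genes it called 1 lower on that scale, Utp3, a nucleolar protein gene (log2 difference -1.58, and -0.86 after scaling), which is named after its value was seen. The median difference of the 30 was -0.28, beside -0.33 for all genes. Sult1e1, an oestrogen sulfotransferase gene and the nearest measured gene on the Csn1s1 side, read 0 units in resistant cells, against -1.24 and 0 units in sensitive cells. BC051076, the nearest beyond Csn3, read 118 units, against 190 and 434 units. Of the measured genes between the caseins, Odam, which encodes a tooth enamel-associated protein, read 4.67 units against 1.24 and 6.60 units. Prr27 read 4.67 units against -3.73 and 11.9 units, and Gm7337 read 7.78 units against 21.1 and 42.2 units. Of the 30 flanking genes, 11 read at or below 10 units on all 3 arrays, where a fall could not have been measured. The limit reaches further because of the offset of 50. A fall of 1 log2 unit to a reading of 0 needs at least 50 units on each sensitive array. Others of the 30 lay below that, such as Tmprss11g (44.7 and 25.1 units) and Cabs1 (21.1 and 31.7 units), so for such genes a fall could hardly be called.

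Dck, the kinase gene that first phosphorylates cytarabine, is one of these neighbours. It read 14263 units in resistant cells, against 12919 and 12378 units in sensitive cells, and was not called (log2 difference 0.17, and 0.93 after scaling). After scaling Dck lay 0.87 above sensitive replicate 1 and 0.999 above replicate 2, so it missed the call on that scale by size alone.

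**Figure D4:**
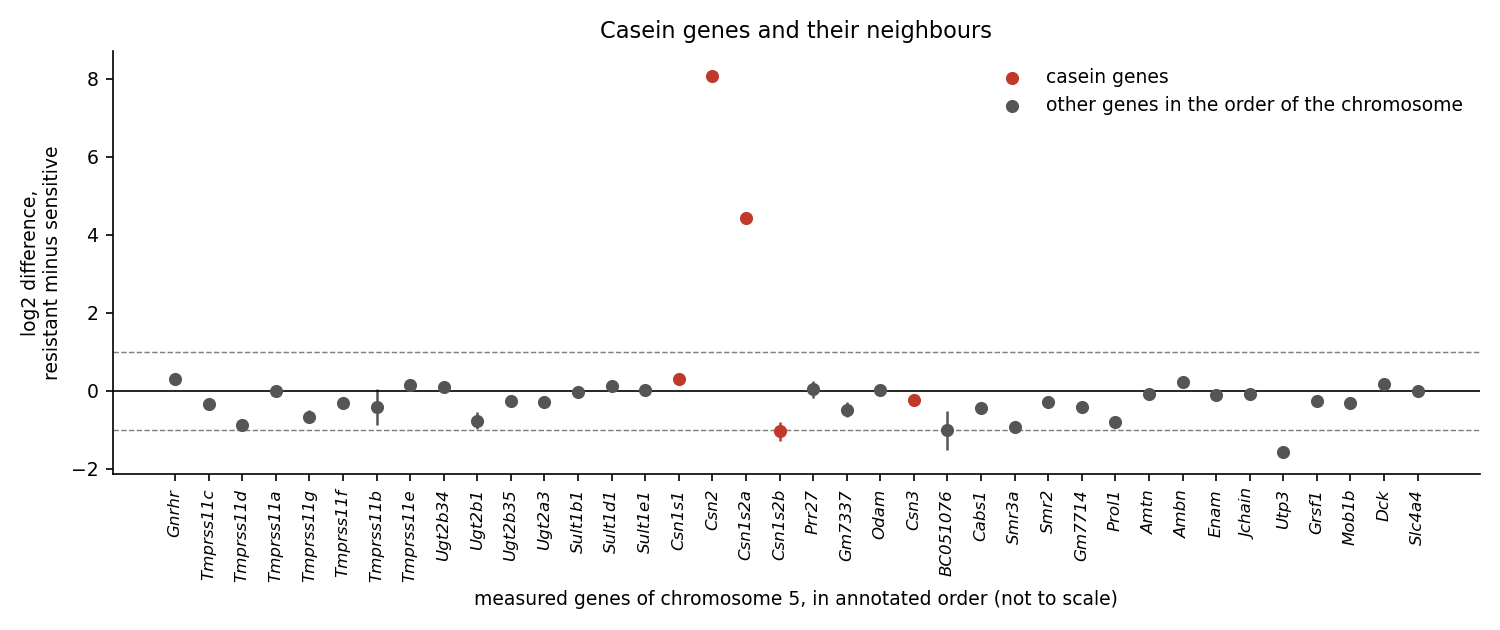
Log2 difference between resistant and sensitive cells as deposited, for the casein genes (red) and the measured genes beside and between them (grey), in their order on chromosome 5 and not to scale; points are the difference from the sensitive mean, lines run between the differences from each sensitive array. Csn2 and Csn1s2a stand alone at 8.08 and 4.44, and no flanking gene's difference from the sensitive mean lies above 0.29.

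Of 22 listed receptors and kinases that signal to STAT5, 19 were measured, of which 3 rose, 1 fell and 15 were not called, beside 5.21% of all genes called higher and 8.44% called lower. Il2ra, the high-affinity chain of the interleukin-2 receptor and itself a STAT5 target, rose with 2988 units in resistant cells, against 28.6 and 36.9 units in sensitive cells (log2 difference 5.20, SE 0.28, limma adjusted p = 7.56e-08). Ghr, the growth hormone receptor gene, was called higher on its brightest probe, with 1551 units against 19.9 and 31.7 units (log2 difference 4.41, limma adjusted p = 3.88e-07). Its other 2 probes disagreed, with log2 differences of 0.81 (132 units against 44.7 and 64.6 units) and -0.33 (1.56 units against 9.94 and 19.8 units), and the mean of the 3 probes gave 1.63. Csf2rb, the shared signalling chain of the GM-CSF, interleukin-3 and interleukin-5 receptors, rose with 8484 units, against 950 and 1682 units (log2 difference 2.70, limma adjusted p = 1.26e-05). Its other probe read 950 units, against 271 and 536 units, a smaller log2 difference of 1.21. That probe differed by 1.64 from sensitive replicate 1 and by 0.77 from replicate 2, so it did not reach 1 from each. The call is that of the brightest probe, and the mean of both gave 1.95. The close copy of Csf2rb, Csf2rb2, may share signal with either probe, which was not tested. Il7r, the interleukin-7 receptor chain, fell with 10.9 units, against 2052 and 1236 units (log2 difference -4.76).

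The GM-CSF receptor's own ligand-binding chain, Csf2ra, was not called, with 1510 units against 2598 and 2675 units (log2 difference -0.78, and -0.04 after scaling). Jak2, the kinase attached to most of these receptors, read 412 units, against 347 and 367 units, and was not called. Its log2 difference was 0.19 as deposited (limma adjusted p = 0.58) and 0.88 after scaling (limma adjusted p = 0.043). After scaling Jak2 thus missed the call by size alone. Epor, the erythropoietin receptor gene, read 0 units, against 18.6 and 14.5 units. The prolactin receptor gene Prlr was not analysed here. The list's median difference was -0.41 as deposited and -0.19 after scaling. As deposited alone 7 of its genes were called lower, beside 18.5% of all genes called lower on that scale. The 7 include Il3ra, with 277 units against 1227.5 and 1005 units (log2 difference -1.83, and -1.16 after scaling). The other interleukin-2 receptor chains were not called: Il2rb read 84.0 units, against 73.3 and 107 units, and Il2rg 1.56 units, against 0 and 2.64 units. Il3ra, Il2rb and Il2rg are named after their values were seen.

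Of the other STAT genes 4 of 5 were measured, 0 rose and 1 fell, beside 5.21% of all genes called higher and 8.44% called lower. At an unadjusted limma p under 0.05 as deposited, 0 were higher and 2 lower, counts from which nothing is read. Stat4, which transmits interleukin-12 signals, fell with 134 units, against 604 and 952 units (log2 difference -2.14, limma adjusted p = 9.47e-05), and lost its call with quantile normalization (limma adjusted p = 0.0714) and without the variance trend. Stat3 read 207 units, against 166 and 149 units, and was not called.

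Among inhibitors of JAK and STAT signalling other than Cish and Socs2, 17 of 18 were measured. Of these 0 rose and 1 fell, beside 5.21% of all genes called higher and 8.44% called lower. At an unadjusted limma p under 0.05 as deposited, 1 was higher and 7 lower, counts from which nothing is read. Ptpn6, the phosphatase SHP-1 that dephosphorylates cytokine receptors and JAK2, fell with 963 units in resistant cells, against 3623 and 3912 units in sensitive cells (log2 difference -1.91, SE 0.20, limma adjusted p = 1.39e-05, and -1.18 after scaling). Socs1, an inhibitor best known for interferon signalling, read 177 units, against 134 and 260 units, and was not called. Socs3, the inhibitor of interleukin-6 and G-CSF receptor signalling, read 154 units, against 217 and 1043 units, and was not called (log2 difference -1.41, limma adjusted p = 0.060). The sensitive arrays differed widely for Socs3, and the resistant reading lay below both as deposited. The list's median was -0.47 as deposited and 0.26 after scaling.

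Of 20 further known STAT5 targets 19 were measured, 4 rose, 5 fell and 10 were not called, beside 5.21% of all genes called higher and 8.44% called lower, and Il2ra is counted here too. Igf1, the growth factor gene that growth hormone induces in liver through STAT5b, rose with 882 units in resistant cells, against 0 and 3.96 units in sensitive cells (log2 difference 4.17, limma adjusted p = 3.59e-07, and 5.65 and 3.27 with offsets of 16 and 100). Its second probe read 541 units, against 6.21 and 0 units. Id1, an inhibitor of basic helix-loop-helix factors, rose with 4334 units, against 206 and 529 units (log2 difference 3.51, limma adjusted p = 1.33e-05). Bcl2, the anti-apoptotic founding member of its family, rose with 3664 units, against 430 and 401 units (log2 difference 2.997, SE 0.22, limma adjusted p = 8.30e-07).

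Ccnd1, which encodes cyclin D1, fell with 487 units, against 4791 and 6383 units (log2 difference -3.38, limma adjusted p = 3.39e-07). The remaining 4 called genes, named after their values were seen, all fell: Id2 (log2 difference -3.19), the transcriptional repressor gene Bcl6 (-2.79), the cell cycle inhibitor gene Cdkn1b (-1.73) and the Pim1 relative Pim2 (-1.64). STAT5 is known to repress Bcl6, so the listed targets share no single expected direction. STAT5 activity was not tested by these counts. Bcl2l1, which encodes Bcl-xL, read 114 units, against 111 and 183 units, and was not called. Myc was not analysed here. The list's median was -0.41 as deposited and 0.33 after scaling, and it differed by 0.41 between the sensitive arrays, with replicate 2 higher.

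Of the cofactors that act with STAT5 on casein promoters, 12 of 14 were measured. Among them 0 rose and 2 fell, beside 5.21% of all genes called higher and 8.44% called lower. At an unadjusted limma p under 0.05 as deposited, 2 were higher and 5 lower, counts from which nothing is read. Nmi, an interferon-induced protein that binds STATs, fell with 99.6 units, against 549 and 571 units (log2 difference -2.03), and the C/EBP family gene Cebpd fell with 3.11 units, against 91.9 and 121 units (log2 difference -1.55). The call of Cebpd was lost with median centring (-0.93) and with an offset of 100. Cebpb, a C/EBP factor that acts on casein promoters, read 1226 units in resistant cells, against 188 and 575 units in sensitive cells. It was called higher as deposited alone (log2 difference 1.73, limma adjusted p = 0.00545) and not after scaling (2.47, limma adjusted p = 0.065). Nr3c1, the glucocorticoid receptor gene, read 224 units, against 501 and 423 units, and was not called. Elf5, the factor that drives alveolar differentiation of the mammary gland, read 0 units, against 1.24 and 6.60 units.

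**Figure D5:**
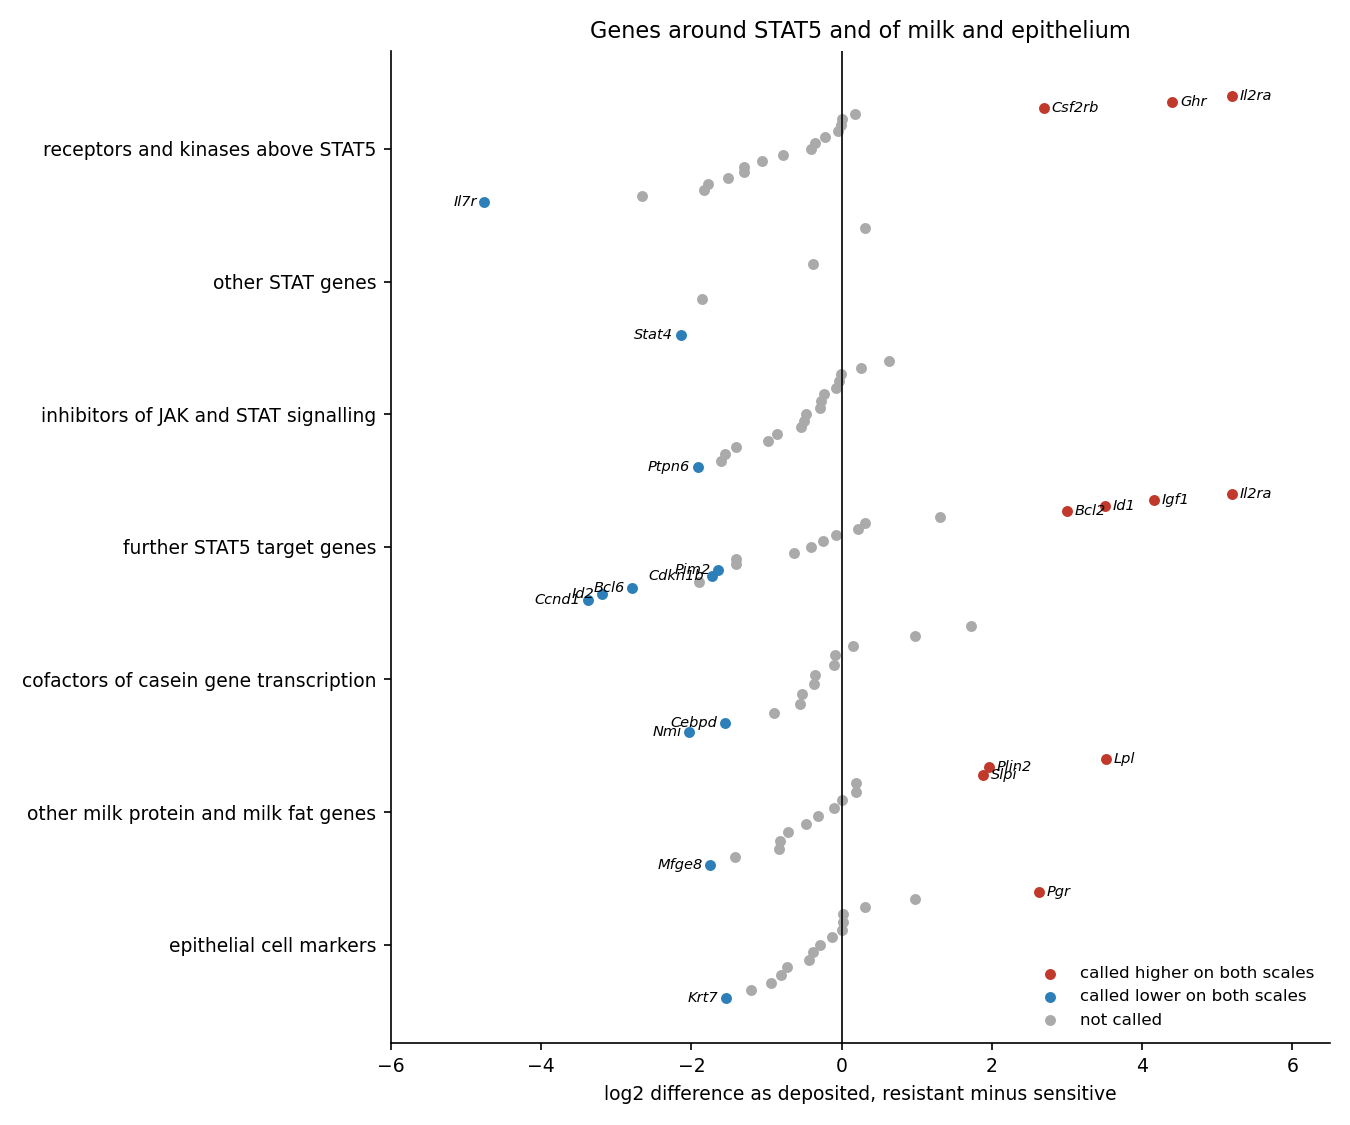
Log2 difference between resistant and sensitive cells as deposited for the genes of 7 lists, 1 point a gene; red points were called higher and blue points lower on both scales by limma, grey points were not called. The receptor list and the further STAT5 targets hold called genes on both sides of 0, and Il2ra appears in both lists.

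Of 15 listed milk genes outside the casein cluster 14 were measured, 3 rose and 1 fell, beside 5.21% of all genes called higher and 8.44% called lower. Those that rose are also expressed outside the mammary gland: Lpl, which encodes lipoprotein lipase, read 2280 units in resistant cells, against 139 and 169 units in sensitive cells (log2 difference 3.52, SE 0.26, limma adjusted p = 7.20e-07). Plin2, a lipid droplet coat protein gene, rose with 3665 units, against 740 and 1097 units (log2 difference 1.96). Slpi, a leukocyte protease inhibitor gene, rose with 2172 units, against 514 and 594 units (log2 difference 1.88). Mfge8, which encodes a milk fat globule protein that macrophages also make, fell with 128 units, against 487 and 611 units (log2 difference -1.75), and lost its call with quantile normalization and with an offset of 100.

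The whey protein genes were not called. Wap read 12.4 units in resistant cells, against 6.21 and 2.64 units in sensitive cells, and Lalba read 10.9 units, against 57.2 and 59.4 units. Both lay below the median of the resistant array. Btn1a1, which encodes the milk fat globule protein butyrophilin and is named after its values were seen, read 26.4 units, against 67.1 and 106.8 units, and was not called. The list's median difference was -0.21 as deposited and 0.25 after scaling.

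Markers of other cell types were read beside these results. Of 15 measured epithelial markers 1 rose and 1 fell, beside 5.21% of all genes called higher and 8.44% called lower. Their summed intensity was 2522 units on the resistant array, against 1116 and 1526 units on the sensitive arrays. Pgr, the progesterone receptor gene, rose with 1789 units, against 205 and 297 units, and so gave most of the resistant sum. The cytokeratin gene Krt7 fell with 24.9 units, against 147 and 193 units, and lost its call with quantile normalization, median centring and an offset of 100. Epcam read 1.56 units in resistant cells, against 12.4 and 13.2 units, and Krt8 read 12.4 units, against 9.94 and 13.2 units, so these epithelial markers were near 0 on all 3 arrays, as was Foxa1 (0 units, against 3.73 and 5.28 units). Others of the list, named after their values were seen, were above 0: Krt14 read 112 units, against 195 and 277 units, and Esr1, the oestrogen receptor gene, read 286 units, against 113 and 129 units, neither being called. Krt18 read 145 units, against 112 and 102 units, and was not called.

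Markers of the labelled myeloid cell type differed among themselves. Mpo, the myeloperoxidase gene, read 80905 units in resistant cells, against 76710 and 84138 units in sensitive cells, and Ptprc, which encodes CD45, read 6725 units, against 8096 and 8219 units. Neither was called. Of 14 myeloid markers 3 rose, among them Fcgr3 and Elane, and 4 fell: Csf1r, Cd34, Spi1 and Ms4a3, whose call was lost with quantile normalization. Beside this and the marker lists that follow stand 5.21% of all genes called higher and 8.44% called lower. Of those named after their values were seen, Spi1, which encodes the myeloid transcription factor PU.1, read 109 units, against 634 and 591 units (log2 difference -2.06). Cd33 read 17.1 units, against 17.4 and 73.9 units, and was not called. The myeloid list summed to 167610 units, against 138152 and 149849 units, with Mpo the largest part on each array. All marker sums are as deposited, without scaling for the dimmer resistant array. Of 10 measured lymphoid markers 1 rose (Ebf1, 137 units against 8.70 and 15.8 units) and 1 fell (Cd79b, 21.8 units against 970 and 1049 units). Of 9 erythroid, megakaryocyte and mast cell markers 0 rose and 0 fell, with summed intensities of 162 units, against 521 and 562 units. At an unadjusted limma p under 0.05 as deposited, 0 of these 9 were higher and 6 lower, counts from which nothing is read. The part of a change in myeloid stage in the casein and STAT5 readings was not tested. In bulk RNA, more cells carrying a transcript and more transcript per cell cannot be told apart.

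When values were floored at 50 units in place of the added offset, 1 of the 31 called genes of these lists, Ebf1, kept its call. Both sensitive readings of Ebf1 (8.70 and 15.8 units) lie under the floor, which makes them equal by construction. The kept call therefore does not mark Ebf1 as firmer than the other genes. Of the 25 named by rule, 24 lost it with limma adjusted p of 0.0623 to 0.193, and 24 of the 25, Cebpd being the exception, still differed by at least 1 log2 unit from each sensitive array.

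The genes whose pair of log2 differences lay nearest to that of Csn2 over the 3 arrays, by Euclidean distance, were Igfbp7 (distance 0.20), Pmp22 (0.29), Serpine2 (0.92), Ppib (1.21) and Zmpste24 (1.28). Igfbp7, a secreted protein that binds insulin-like growth factors, read 32888 units in resistant cells, against 47.2 and 76.5 units in sensitive cells. Its other probe read 23.3 units, against -3.73 and 5.28 units, a log2 difference of 0.54. The nearness of Igfbp7 to Csn2 therefore rests on its brightest probe. Pmp22, Serpine2 and Ppib read at or below 10 units on both sensitive arrays, unlike Csn2. Zmpste24, a protease gene of lamin maturation, read 12088 units, against 23.6 and 46.2 units. Its other probe read 9153 units, against 84.5 and 168 units, a smaller log2 difference of 5.75.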

How the data were processed

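Per the labels' protocols, total RNA was amplified and coupled to Cy5, on 1-colour arrays. The authors deposited 1 intensity per probe and array, linear and background-subtracted, since values reach below 0. The sources used here do not give scanner, image software or build. Groups came from sample titles. Of 26423 probes 20377 had a gene symbol, named through GRCm38.p6 RefSeq symbols (18213 current, 2126 older, 38 unmatched). The brightest probe over the 3 arrays stood for each of 17742 genes (2278 with more than 1). The text says where averaging a gene's probes moved a fold by over 1.5 times, except for Igfbp7 and Zmpste24, whose other probes are given instead. limma 3.58.1 in R 4.3.3 (lmFit, eBayes with a trend) was fitted to log2(intensity + 50) both unscaled and scaled on bright probes, with 1 residual degree of freedom and priors of 11.0 and 2.54. The step was tested on simulated data. Members and lists were chosen with earlier results of these data known. The table held intensities, so the design's log2 offset applied. Named by rule besides the 10 genes were anchor genes named in the design, up to 5 called genes a list by size, and the nearest neighbours. The genes nearest to Csn2 were also set by the design. Dck, Foxa1, Tmprss11g, Cabs1 and the genes said to be named after their values were seen lie outside this rule. Alternatives were scale, offset, floor, dim-gene filter, probe mean, eBayes trend, size and leaving out a sensitive array. Tables and figures were made in Python 3.11.15 (numpy 2.4.6; pandas 2.3.3; matplotlib 3.10.9). Promoter sequences are RefSeq's.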

Additional observations from a re-analysis of the deposited data

How the results depend on the processing

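Across 13 alternatives Csn2 stayed between 7.88 and 8.84 log2 units above the sensitive cells, Csn1s2a between 3.49 and 6.13, Cish between 3.12 and 4.12, Socs2 between 1.90 and 2.75 and Stat5b between 1.89 and 2.72. Pim1 (-0.71 to 0.42), Stat5a (-0.94 to 0.07) and Csn3 (-0.87 to 0.38) changed sign. The 5 genes past a size of 1 became 3 at a size of 2, and leaving out a sensitive array gave 5 higher and 0 to 1 lower, the 1 being Csn1s2b without replicate 1. As deposited alone, 3284 genes of the whole table were called lower (1498 in the reported setting), with 7 receptors and kinases, 3 inhibitors, 2 milk genes and 1 neighbour of the caseins. With scaling alone 1740 genes were called higher (925 as reported) and 1 inhibitor. Quantile normalization called 1334 genes of the whole table higher and 1201 lower, with 1 inhibitor higher and 0 milk genes lower. Centring on medians called 1697 genes and 1 inhibitor higher, and 1273 genes and 2 receptors lower. An offset of 16 called 1047 genes higher, and 2372 genes, 2 receptors, 2 milk genes and 2 neighbours lower. An offset of 100 called 789 genes higher, and 1099 genes, 3 further targets and 0 milk genes lower. The floor of 50 left 132 genes higher and 24 lower, with 0 receptors, 0 further targets and 0 milk genes in either direction and 0 inhibitors lower. Without the dimmest 25% of genes, 928 of the genes kept were called higher and 1536 lower, with 3 receptors lower. A size of 2 left 354 genes higher and 420 lower, 1 milk gene higher, and 0 inhibitors, 3 further targets and 0 milk genes lower. Leaving out a sensitive array leaves no residual degree of freedom, so counts are by size alone: 976 to 1108 genes higher and 1850 to 1934 lower, 4 to 5 receptors, 2 to 3 inhibitors, 5 to 8 further targets and 1 to 2 milk genes lower. The cause of these changes was not tested, except that fewer or more genes pass a larger or smaller size by construction.

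Among the other named genes sign changed only where no call was made: Socs1 (0.56 scaled, 0.51 quantile, 0.55 centred), Bcl2l1 (0.33, 0.29 and 0.38), Ptprc (0.48 scaled, 0.35 centred), Elf5 (0.0074 quantile, 0.51 centred), Mpo (-0.19 quantile), and Epor (0.21), Epcam (0.34) and Gm7337 (0.13) after centring. With a sensitive array left out in turn the values ran from -0.45 to 0.30 for Socs1, -0.51 to 0.027 for Bcl2l1, -0.017 to 0.059 for Krt8, -0.056 to 0.077 for Mpo, -0.18 to 0.24 for Prr27 and -0.050 to 0.093 for Odam. No paired analysis was possible because the resistant array carries no replicate number. No flags for spots near background were used here, so readings near 0 limit Csn1s1, Csn1s2a and Csn3 and genes such as Igf1.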
